A study of Mus musculus with 2 samples.

Results

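The 45 genes described here are cell cycle and proliferation genes, listed as S phase, G2/M and cyclin genes with earlier results of these data known. They are part of the 55536 genes of the GENCODE M21 annotation of the mouse genome build GRCm38, also called mm10. They were followed in RNA-seq libraries of differentiated female germline stem cells (FGSCs), and the count of a gene was the sum over all IDs of that gene. FGSCs are cells of the postnatal ovary that can be grown in culture and induced toward the oocyte fate. The cells came from CD-1 mice, and the developmental stage is given as premeiotic interphase. They had grown on STO cells, a mouse embryonic fibroblast line arrested with mitomycin C, before they were moved onto granulosa cells, which line the ovarian follicle, for 3 days with 10 µM retinoic acid (RA) and BMP4, a bone morphogenetic protein given at 10 ng/mL, in medium that lacked the growth factors GDNF, EGF and LIF. The 2 libraries, replicates 1 and 2, each held 5 to 8 cells, shared all of these conditions and were made by Smart-seq2, in which polyadenylated RNA is copied into cDNA and amplified by PCR. Undifferentiated FGSCs were not analysed here, so no change with differentiation was measured, and no source says whether the libraries came from separate cultures.

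Replicate 1 held 1517151 counts and replicate 2 held 12442. Levels are given per 1000000 counts of a library (CPM), where 1 count stood for 0.659 CPM in replicate 1 but for 80.4 CPM in replicate 2. The smallest level taken as shown, 3 counts, was 1.98 CPM and 241 CPM, respectively. All intervals below are 95% intervals that cover counting error only, since PCR copies are not independent molecules. Most coding transcripts are listed under protein accessions without a gene name, and the gene of each accession was inferred from its place between annotated transcripts. Of 16488 IDs of known gene that were hidden to check this, 99.97% were placed in the right gene. The members had 117 such accessions and 127 Ensembl transcript IDs, and the values on Ensembl IDs, which need no inference, are given beside the sums. In libraries of few cells, fewer cycling cells and less of these RNAs per cell cannot be told apart.

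The cell cycle is driven by cyclins, proteins made and destroyed once per division, and by the cyclin-dependent kinases (CDKs) they activate. D cyclins with CDK4 or CDK6 phosphorylate RB1 in G1, which frees E2F factors to switch on the genes of DNA synthesis. Cyclin A and B with CDK1 then drive the cell into mitosis, and the inhibitors p21, p27 and p16 hold the kinases back. In the female germline, mitotic division ends when germ cells enter meiosis, which RA sets off. Many of these genes share promoter elements: E2F sites in S phase genes, and the cell cycle genes homology region (CHR), often near CCAAT boxes, in G2/M genes.

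The promoters of 5 members are printed to show those elements in genes that the results turn on. They run from 250 bases before to 50 bases after the start of the gene, are given 5′ to 3′ on the strand of the gene, and come from RefSeq on build GRCm38.p6. Capitals mark E2F words (TTTCCCGC, TTTCGCGC, TTTGCCGC and TTTGGCGC), words of the CHR, the CCAAT box and the spacing of a p53 site (CATGNNNNNNCATG), each searched on both strands. The CHR was searched as TTTGAA, which is the common form. Its variant TTCGAA reads the same on both strands.
Top2a promoter, chr11:99024140-99024439, minus strand: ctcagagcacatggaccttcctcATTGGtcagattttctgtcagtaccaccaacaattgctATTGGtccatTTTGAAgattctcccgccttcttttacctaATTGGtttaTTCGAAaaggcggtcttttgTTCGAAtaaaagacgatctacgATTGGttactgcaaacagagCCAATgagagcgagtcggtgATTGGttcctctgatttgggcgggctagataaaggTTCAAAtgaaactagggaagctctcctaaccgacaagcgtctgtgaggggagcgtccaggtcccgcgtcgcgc
Cdk1 promoter, chr10:69352863-69353162, minus strand: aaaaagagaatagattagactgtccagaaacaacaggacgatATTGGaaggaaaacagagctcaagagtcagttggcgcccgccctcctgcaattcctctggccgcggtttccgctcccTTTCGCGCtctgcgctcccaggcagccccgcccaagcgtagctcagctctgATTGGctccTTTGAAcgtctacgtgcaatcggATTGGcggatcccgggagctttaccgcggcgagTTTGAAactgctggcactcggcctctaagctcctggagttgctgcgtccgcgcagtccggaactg
Mcm5 promoter, chr8:75109259-75109558, plus strand: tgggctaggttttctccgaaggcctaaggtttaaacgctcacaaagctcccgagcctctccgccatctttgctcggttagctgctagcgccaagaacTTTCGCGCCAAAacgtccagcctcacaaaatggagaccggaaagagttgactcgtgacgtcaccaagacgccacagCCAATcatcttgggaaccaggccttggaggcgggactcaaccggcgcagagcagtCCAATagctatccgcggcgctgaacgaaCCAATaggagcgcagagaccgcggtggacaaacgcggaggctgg
Rrm2 promoter, chr12:24708004-24708303, plus strand: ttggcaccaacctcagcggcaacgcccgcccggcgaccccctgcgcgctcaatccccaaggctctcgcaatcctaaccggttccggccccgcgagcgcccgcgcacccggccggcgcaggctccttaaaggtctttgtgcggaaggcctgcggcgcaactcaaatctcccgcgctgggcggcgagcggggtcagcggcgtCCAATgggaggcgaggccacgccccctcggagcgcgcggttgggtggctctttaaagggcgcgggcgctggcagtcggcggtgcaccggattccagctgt
Cdkn1a promoter, chr17:29090729-29091028, plus strand: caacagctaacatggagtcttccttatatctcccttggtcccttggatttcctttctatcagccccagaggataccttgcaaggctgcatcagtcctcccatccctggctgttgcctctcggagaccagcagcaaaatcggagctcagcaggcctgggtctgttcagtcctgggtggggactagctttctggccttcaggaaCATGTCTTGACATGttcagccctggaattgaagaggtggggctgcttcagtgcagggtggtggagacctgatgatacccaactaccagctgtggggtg
In Mcm5 the E2F words overlap, and in Top2a the reverse-strand form of the last CHR word starts 23 bases before the gene start. RefSeq promoters were found for 36 of the 45 members, in 41 entries. An E2F word was in 17.1% of the member entries and in 2.26% of all 32851 entries. By gene, it was found for 4 of 6 of the MCM helicase and PCNA and for 0 of 3 of nucleotide supply. The other genes with an E2F word were Cdk1, Cdk2 and Cdkn2a. A CHR word was in 43.9% of the member entries against 19.2% of all, among them all 3 promoters of the spindle checkpoint and CDC20, all 3 of the mitotic kinases and CDC25, and both chromosome markers, Mki67 and Top2a. CCAAT was in 75.6% against 37.4%. The p53 spacing, which was searched after the counts had been seen, was in 0.712% of all entries and among the members only in Cdkn1a. There it was in 1 entry, the one printed, with CATGTCTTGACATG starting 48 bases before the start of that entry. The window of the other Cdkn1a entry begins further downstream, at chr17:29093519, and held 0 such matches. These matches are descriptions of the letters in the window and no evidence of binding.

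Replicate 1 held transcripts of most of the cell cycle genes. At least 3 counts were found for 32 of the 45 members in replicate 1, where 27.5% of the 22028 protein-coding genes reached that level, and 19 members had at least 100 counts, a level that 9.15% of protein-coding genes reached. The median member had 47 counts in replicate 1, and the median protein-coding gene had 0. Because the members were chosen with earlier results of these data known, these shares are a description only. In replicate 2, 4 members reached 3 counts (Ccnd3, Birc5, Cdkn1a and Ccnd1), where 3.16% of protein-coding genes did, and 10 members had any count, where 10.6% of protein-coding genes did, which left 35 members at 0. Together the members took 13443 counts of replicate 1, or 0.886% (Wilson interval, 0.871% to 0.901%), and 26 counts of replicate 2, or 0.209% (0.143% to 0.306%). All statements on levels therefore rest on replicate 1.

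**Figure D1:**
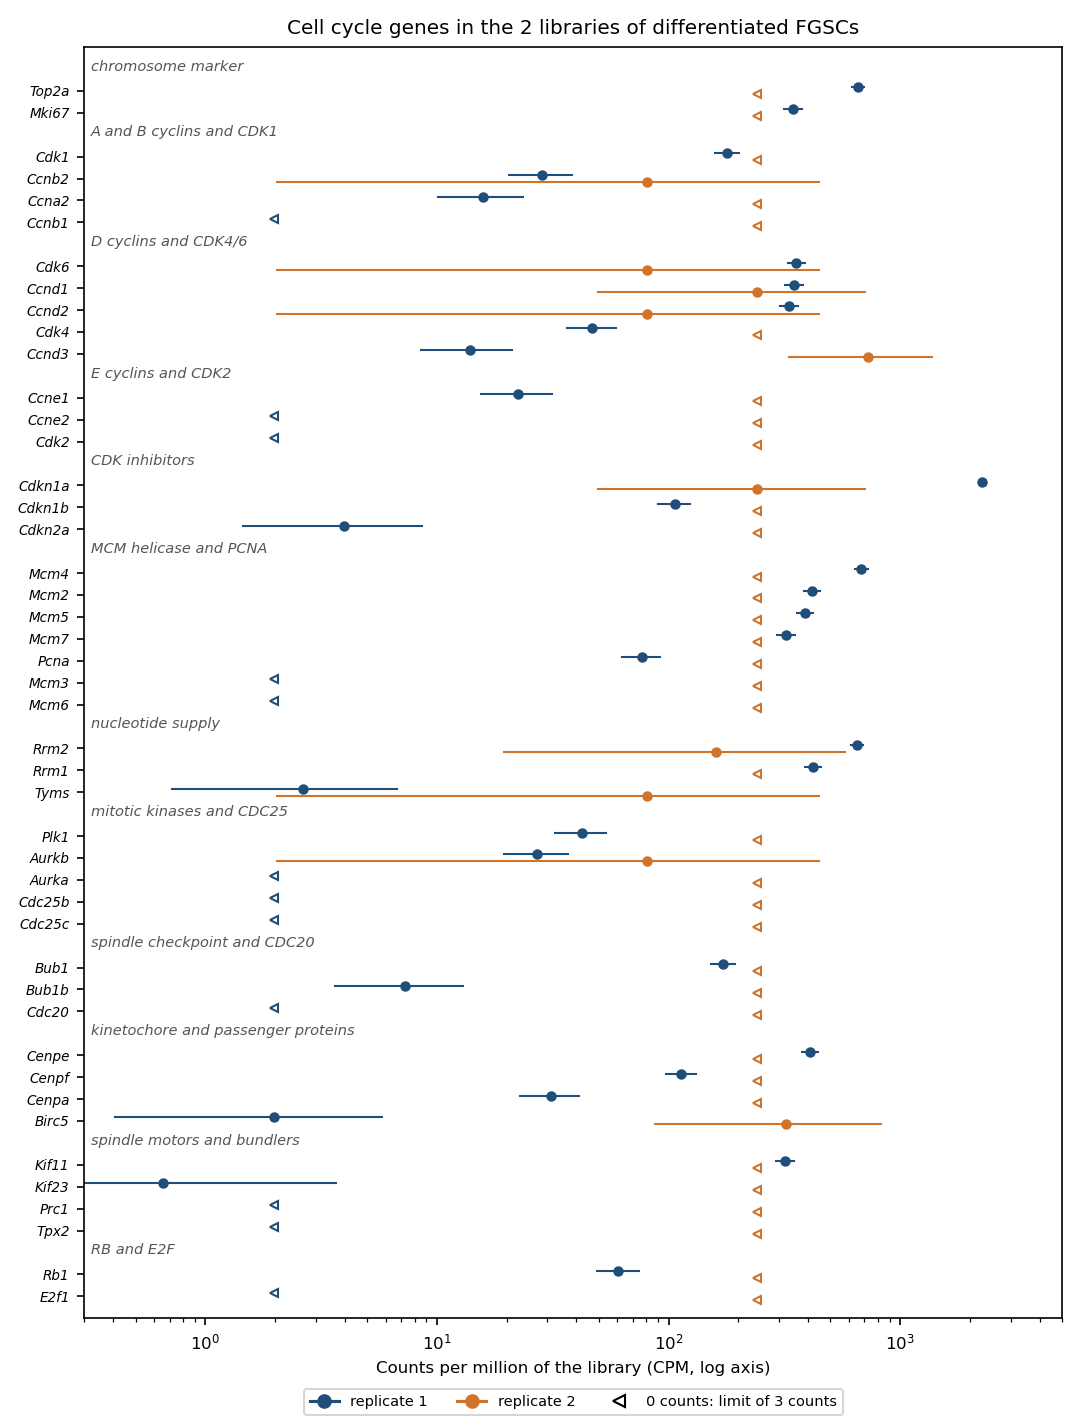
CPM on a log axis of the 45 members by role in replicate 1 (blue) and replicate 2 (orange), with 95% Poisson intervals as lines and, for genes at 0, the limit of 3 counts as an open arrow. In replicate 1 Cdkn1a stands highest at 2263 CPM, while in replicate 2 the limit of a gene at 0 lies at 241 CPM, above most levels seen in replicate 1.

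Proliferation is usually read from Ki-67, which coats mitotic chromosomes, and from topoisomerase II alpha, which untangles sister DNA strands. Mki67 (chr7:135689784-135716361) had 524 counts in replicate 1, or 345 CPM (316 to 376), and 0 in replicate 2. Top2a (chr11:98992943-99024189) had 998 counts in replicate 1, or 658 CPM (618 to 700), and 0 in replicate 2. Both markers were thus well counted in replicate 1 and not found in replicate 2. At the share of replicate 1, replicate 2 would have held 4.30 counts of Mki67 and 8.18 of Top2a. The 4 E2F words were in neither promoter, and the CHR words were in both.

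Of the G1 kinases and their cyclins, all 5 were shown in replicate 1, with 1662 counts in sum. Cdk6, a kinase that binds D cyclins, had 541 counts in replicate 1 and 1 in replicate 2. Ccnd1, which encodes cyclin D1, had 528 and 3 counts. Ccnd2, which encodes cyclin D2, had 501 and 1 counts. All 3 were counted many times in replicate 1 and at most 3 times in replicate 2. Cdk4 had 71 counts in replicate 1 and 0 in replicate 2, and 55 of the 71 lay on a retained-intron transcript rather than on a coding accession. Ccnd3 had 21 and 9 counts, and a further 507 counts in replicate 1 lay on an ID that could belong to Ccnd3 or to Bysl, its neighbour on the opposite strand. The 9 counts of Ccnd3 in replicate 2, and 6 of the 21 in replicate 1, lay on the retained-intron transcript ENSMUST00000182281.1.

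Among the E cyclins and CDK2, which start S phase, Ccne1 had 34 counts in replicate 1 and 0 in replicate 2, whereas Ccne2 and Cdk2 had 0 in both. Of the mitotic cyclins and their kinase, Cdk1 (chr10:69335146-69352938) led with 272 counts in replicate 1, or 179 CPM (159 to 202), and 0 in replicate 2. Ccnb2, cyclin B2, had 43 and 1 counts, and Ccna2, cyclin A2, had 24 and 0. As counts per kilobase of exon and per 1000000 counts (FPKM), the kinase at 36.3 (32.1 to 40.9) lay above Ccnb2 at 18.5 (13.4 to 24.9) and Ccna2 at 3.87 (2.48 to 5.76) in replicate 1. Per kilobase of coding bases that no other transcript covers, Cdk1 was at 53.1, Ccnb2 at 18.5 and Ccna2 at 14.2. The distance between the 2 cyclins thus depended on the length used. Ccnb1, cyclin B1, was at 0 in both libraries. Ccne2, Cdk2 and Ccnb1 had 97, 149 and 166 coding bases, respectively, that no other transcript covers.

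CDK inhibitors took 26.8% of the member counts of replicate 1, almost all through 1 gene. Cdkn1a (chr17:29090976-29100727), which encodes p21, the inhibitor induced by p53, had 3433 counts in replicate 1, or 2263 CPM (2188 to 2340), and 3 counts in replicate 2, or 241 CPM (49.7 to 705). No other member held as many counts in replicate 1. Cdkn1b, which encodes p27, had 161 counts in replicate 1, or 106 CPM (90.4 to 124), and 0 in replicate 2. Cdkn2a, which encodes p16 and ARF, had 6 and 0 counts. The 6 counts all lay on 1 of its 2 accessions. Whether that one stands for p16 or ARF was not looked up, so they do not show p16 transcripts. Without Cdkn1a the group held 167 counts in replicate 1.

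RB1, the brake that D cyclin kinases release, was found through Rb1 with 92 counts in replicate 1, or 60.6 CPM (48.9 to 74.4), and 0 in replicate 2. E2f1, an activating E2F factor, was at 0 in both libraries, although 821 of its coding bases belong to 1 transcript only. That 0 allowed a level of up to 1.98 CPM in replicate 1.

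The MCM proteins, whose 6 subunits Mcm2 to Mcm7 form the helicase that opens DNA at replication origins, held 2856 counts in replicate 1 together with Pcna, the sliding clamp of DNA polymerase. Mcm4 had 1033 counts in replicate 1, Mcm2 633, Mcm5 588 and Mcm7 486. Mcm3 and Mcm6 had 0 counts. Pcna had 116 counts. In replicate 2 all 7 genes of this group were at 0, where the share of replicate 1 would have given 23.4 counts. The 6 subunits are known to be assembled in equal number. Of the pair at 0, Mcm3 had 57 single-transcript coding bases, but Mcm6 (chr1:128331590-128359664) had 1485, about as many as Mcm7 with 1580, and its accessions could belong to no other gene.

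Of the enzymes that supply nucleotides, both subunits of ribonucleotide reductase had many counts in replicate 1. Rrm2 (chr12:24708241-24714146), the subunit whose level follows S phase, had 990 counts in replicate 1, or 653 CPM (613 to 694), and 2 in replicate 2. Rrm1, the catalytic subunit, had 640 and 0. Tyms, thymidylate synthase, had 4 and 1 counts, and its 4 counts in replicate 1 lay on a retained-intron transcript.

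The kinases and phosphatases that start mitosis held 105 counts in replicate 1. Plk1, Polo-like kinase 1, had 64 counts in replicate 1 and 0 in replicate 2. Aurkb, the kinase of the chromosomal passenger complex, had 41 and 1. Aurka, the kinase of the spindle poles, had 0 in both, with 108 counts in replicate 1 on an ID shared with Fam210b, and the phosphatases Cdc25b and Cdc25c, which activate CDK1, had 0 in both. In the checkpoint that holds chromosomes until they are attached, Bub1 had 261 counts in replicate 1, or 172 CPM (152 to 194), and 0 in replicate 2. Bub1b, which encodes BUBR1, had 11 and 0. Cdc20, the activator that the checkpoint restrains, was at 0 in both, with 64 counts of replicate 1 on an ID it may share with Elovl1.

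Genes of the kinetochore, where chromosomes meet the spindle, were led by Cenpe, a motor protein, with 621 counts in replicate 1, or 409 CPM (378 to 443), and 0 in replicate 2. Cenpf had 172 and 0 counts. Cenpa, the histone variant of the centromere, had 47 and 0, and 29 of the 47 lay on a retained-intron transcript. Birc5, which encodes survivin, went the other way with 3 counts in replicate 1 and 4 in replicate 2, on different accessions. Kif11, the motor that pushes spindle poles apart, had 483 counts in replicate 1, or 318 CPM (291 to 348), and 0 in replicate 2. Of the other spindle proteins, Kif23 had 1 and 0 counts, while Prc1 and Tpx2 were at 0 in both, with 317 counts of replicate 1 on an ID that could belong to Tpx2 or to Bcl2l1.

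The counts by which genes were ordered above are not adjusted for length. In this paragraph, levels of different genes are compared per length, as FPKM. On this scale the order in replicate 1 began with Cdkn1a at 637 FPKM (616 to 659), Rrm2 at 235 FPKM (221 to 251), Mcm4 at 190 FPKM (178 to 202) and Mcm5 at 97.1 FPKM (89.4 to 105), and none of these intervals overlap. The next 3 did not differ beyond counting error: Ccnd1 was at 73.9 FPKM (67.7 to 80.5), Top2a at 73.0 FPKM (68.5 to 77.7) and Mcm7 at 72.4 FPKM (66.1 to 79.1). Mcm2 followed at 60.0 FPKM (55.4 to 64.8), Cenpe at 47.5 FPKM (43.8 to 51.4) and Kif11 at 42.7 FPKM (38.9 to 46.7). The intervals of Cenpe and Kif11 overlap, as do those of Kif11 and Bub1 at 39.5 FPKM (34.9 to 44.6). Per kilobase of coding bases that no other transcript covers, Cdkn1a and Rrm2 stayed at ranks 1 and 2, Mcm5 passed Mcm4, and 8 of the 10 members highest per kilobase of exon stayed among the highest 10. Pcna moved from rank 16 to rank 7, and Rrm1 from rank 12 to rank 10.

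**Figure D2:**
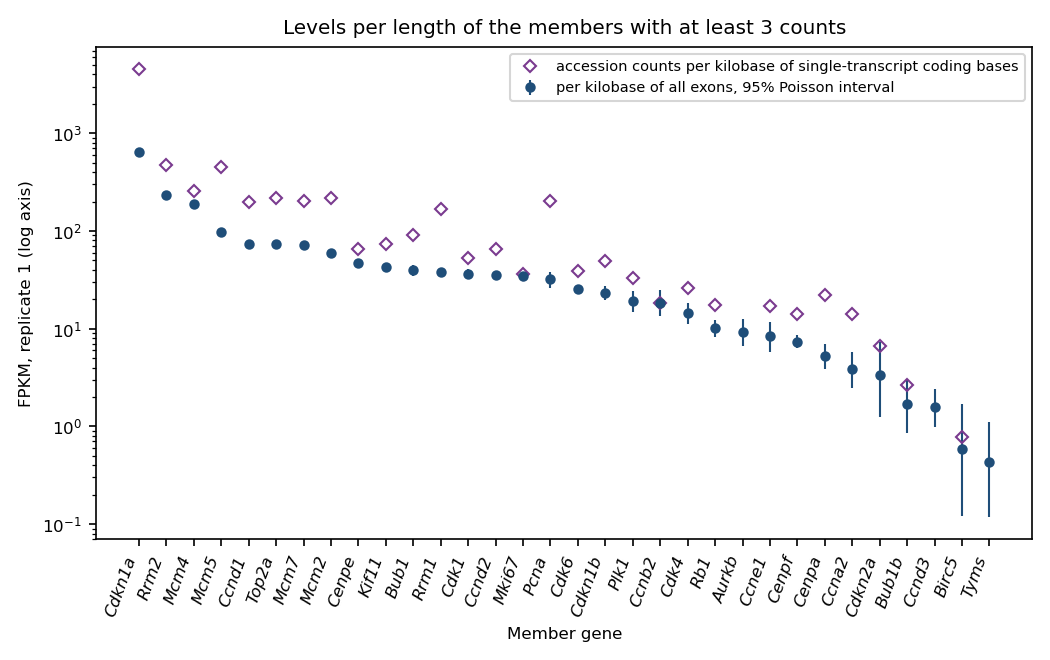
FPKM in replicate 1 on a log axis for the 32 members with at least 3 counts, per kilobase of all exons (filled, with 95% Poisson intervals) and per kilobase of single-transcript coding bases (open, for members with at least 200 such bases). Cdkn1a at 637 FPKM and Rrm2 at 235 FPKM lead on both scales, and Pcna moves up from 31.9 FPKM on the exon scale.

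Of the 12 members at 0 in replicate 1, 7 had few coding bases that belong to 1 transcript only. Among Ensembl IDs, replicate 1 gave counts to 3 of the 10296 whose bases are all covered by other transcripts, against 10.1% of the remaining 64759. Each gene was therefore also described by its single-transcript coding bases, the bases of its coding transcripts that no other transcript covers. Of the 9 members with under 200 such bases, 2 had at least 3 counts in replicate 1 (Aurkb and Ccnd3), and the other 7 were at 0 (Ccnb1, Ccne2, Cdk2, Mcm3, Aurka, Cdc25b and Tpx2). These shares were near those of all 4703 protein-coding genes with under 200 such bases, of which 15.5% had at least 3 counts and 76.6% were at 0. Of the 36 members with at least 200 such bases, 30 had at least 3 counts, which is 83.3%, against 30.8% of the 17325 protein-coding genes with at least 200 such bases. In that class the members at 0 were Mcm6, Cdc20, E2f1, Prc1 and Cdc25c, and Kif23 had 1 count. Aurkb had 41 counts although only 5 of its coding bases were single-transcript bases, so this measure does not account for every count. The part of these bases in the order of levels was not tested beyond the second length scale above.

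**Figure D3:**
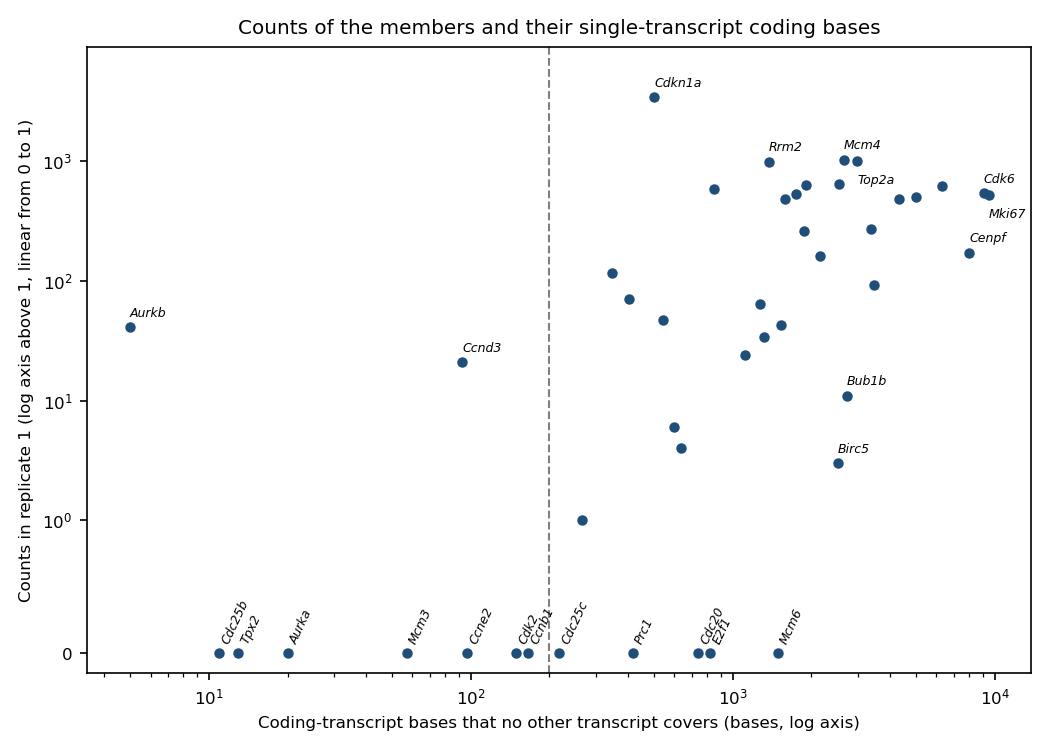
Counts in replicate 1 of each member (log axis above 1 count) against its single-transcript coding bases (log axis), with a dashed line at 200 bases. Left of the line 7 of 9 members sit at 0 counts, and right of it 5 of 36 do.

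The 2 libraries of the same condition were set against each other with Fisher's exact test (two-sided) on the counts of each gene, with Benjamini-Hochberg adjustment over the 8823 genes with at least 3 counts in both libraries together. Such a test compares these libraries and not conditions. Of the 32 members tested, 3 had a lower share in replicate 2 at an adjusted p under 0.05, where 2.67% of all genes tested did, and 2 had a higher share, where 12.2% did. The share of Cdkn1a in replicate 2 was 0.107 times that in replicate 1 (0.0220 to 0.312, adjusted p from Fisher's exact test = 8.67e-08). Mcm4 had 0 counts in replicate 2, and its ratio interval reached up to 0.436 (adjusted p from Fisher's exact test = 0.00310). Top2a also had 0 counts there, and its ratio interval reached up to 0.452 (adjusted p from Fisher's exact test = 0.00445). The share of Ccnd3 was higher in replicate 2, 52.3 times (21.1 to 119, adjusted p from Fisher's exact test = 5.53e-11), with the ID it may share with Bysl left out. With the 507 counts of that ID given to Ccnd3 the ratio was 2.08 (0.945 to 3.98, adjusted p from Fisher's exact test = 0.223), and on accessions alone Ccnd3 had 15 counts in replicate 1 and 0 in replicate 2, so its call did not hold under either. The share of Birc5 was higher in replicate 2, 163 times (27.5 to 1110, adjusted p from Fisher's exact test = 2.06e-06), on 3 counts in replicate 1. With library totals scaled by TMM in place of the plain totals, which shifts all genes by 3.29 on the log2 scale, 22 members were lower and 2, Birc5 and Ccnd3, were higher in replicate 2, where 31.8% and 9.61% of all genes tested were.

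The 14 members with the most counts were those for which replicate 2 would hold at least 3 counts at the share of replicate 1. Genes chosen for high counts in 1 library tend to be lower in another, so their values are given as a description. In replicate 2, 9 of the 14 were at 0, or 64.3%, against 62.1% of the 605 protein-coding genes that passed the same minimum, whose number at the share of replicate 1 averaged 10.1 counts against 7.03 for the members. The summed count of the 14 in replicate 2 was 10, where 98.4 would have been held at the share of replicate 1, a ratio of 0.102. The 605 protein-coding genes held 1518 counts where 6086 would have been held, a ratio of 0.249. All 14 members and 96.7% of the 605 genes lay below the number at the share of replicate 1. Without that minimum, the share on all members in replicate 2 was 0.236 times (0.154 to 0.346) that in replicate 1. The share on all protein-coding genes, most of them low in counts, was 0.779 times (0.761 to 0.797).

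**Figure D4:**
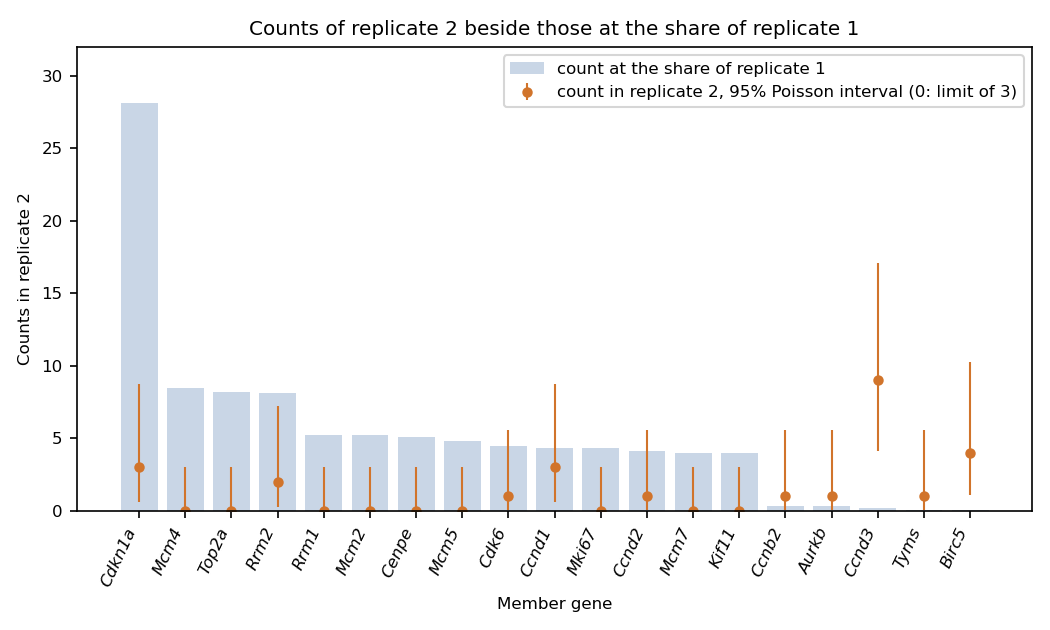
Counts in replicate 2 of the members with any count there or with at least 3 counts at the share of replicate 1 (points, with 95% Poisson intervals or, at 0, the limit of 3 counts), beside the number that the share of replicate 1 would give (bars). Cdkn1a has 3 counts where 28.2 would be held, while Ccnd3 has 9 where 0.172 would be.

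What was counted also differed in kind between the libraries. On Ensembl IDs, which in these files are nearly all non-coding transcripts such as retained introns, lay 140 of the 13443 member counts of replicate 1, or 1.04%, and 13 of the 26 of replicate 2, or 50%. For all protein-coding genes the shares were 2.48% and 29.8%. Retained-intron transcripts alone held 121 member counts in replicate 1 and 12 in replicate 2, 9 of them on Ccnd3 and 3 on Ccnd1. On accessions alone, the member share in replicate 2 was 0.119 times (0.0634 to 0.204) that in replicate 1, and for all protein-coding genes it was 0.561 times (0.545 to 0.576). The part of such transcripts in the difference between the libraries was not tested.

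Other genes of cell division, on lists that hold no member, were also found in replicate 1. The counts below, and the genes named as leading, rest on IDs of 1 gene. In replicate 1, IDs with several candidate genes held 809 counts that could belong to Gtse1 and 595 that could belong to Cdkn2c. Such IDs also held 551 counts that could belong to Gins4, 281 to Ccnb3 and 170 to Pola1. Of 42 other replication factors, 25 had at least 3 counts, among them Prim2, a primase subunit, with 411 counts and Uhrf1, which helps to maintain DNA methylation at the replication fork, with 306. Of 47 other mitosis genes, 30 did, led by the condensin subunits Smc2 with 410 counts and Ncapg with 315. Of 22 other cyclins and CDKs, 13 did, led by Ccng1, a p53 target, with 1370 counts and Cks2, a CDK subunit, with 380. Of 21 other CDK inhibitors, pocket proteins and E2F factors, 10 did, led by E2f4, a mostly repressive E2F, with 197 counts, Cdkn2b, which encodes p15, with 142 and Cdkn2c, which encodes p18, with 112. Of 13 antiproliferative and growth arrest genes, 12 did, and Btg1 had 4272 counts, Tob1 227 and Btg2 205. In replicate 2, at least 3 counts were found for 4 of the 42 other replication factors and for 2 of the 47 other mitosis genes. Cdkn2c and the growth arrest gene Gas6 also reached that level, as did 0 of the other cyclins and CDKs. Of all protein-coding genes, 3.16% reached it in replicate 2, so these few genes are given as a description only.

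**Figure D5:**
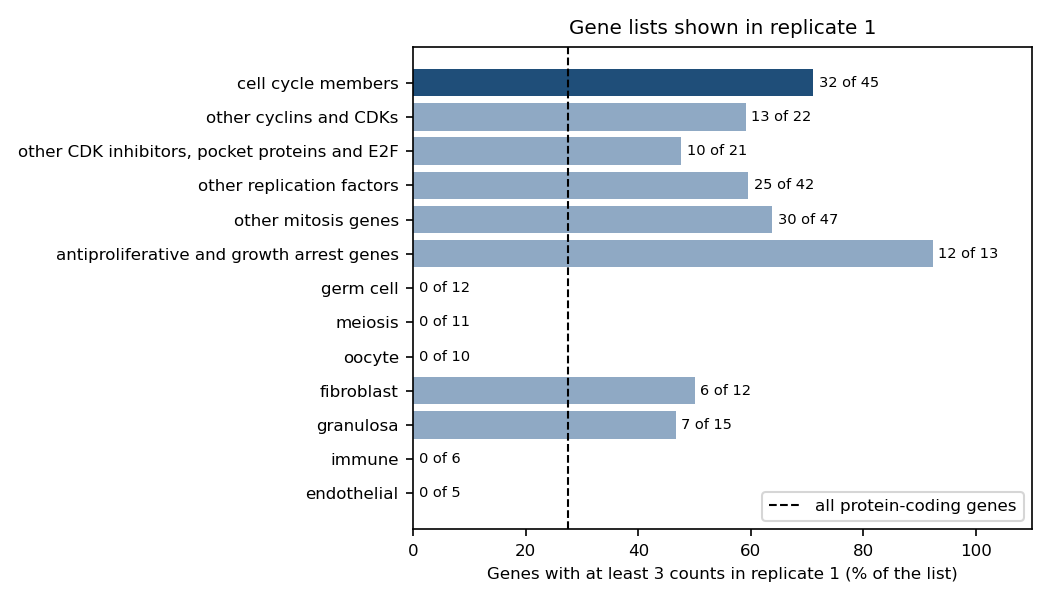
Share of each gene list with at least 3 counts in replicate 1 (bars, % of the list, with the number of genes beside each bar) and the share of all protein-coding genes (dashed line, 27.5%). The members reach 32 of 45, the growth arrest list 12 of 13, and the germ cell, meiosis and oocyte lists 0.

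The markers of the labelled cell type were nearly absent. Of 12 germ cell markers, none had 3 counts in replicate 1, where Kit had 1 count and Ddx4, Dazl and Pou5f1 had 0; in replicate 2 Tfap2c had 5. Counts on IDs that could belong to Ifitm3 or its neighbours, 10577 in replicate 1 and 6 in replicate 2, are not part of this. All 11 meiosis genes, among them Stra8 and Sycp3, and all 10 oocyte genes were at 0 in both libraries, although 4 of the germ cell markers (Kit, Dazl, Dnd1 and Nanos3), 3 of the meiosis genes (Dmc1, Spo11 and Sycp3) and 1 oocyte gene (Nlrp5) had under 200 single-transcript coding bases. Of 12 fibroblast markers, 6 had at least 3 counts in replicate 1, with 2281 counts for Dcn, 910 for Col1a2 and 726 for Pdgfra. The other 6 had at most 2 counts there, with 1 for Vim, Fn1 and Thy1 and 0 for Lum and Pdgfrb. The summed level was 2917 CPM in replicate 1 and 1447 CPM in replicate 2, the latter on only 18 counts. Of 15 granulosa markers, 7 had at least 3 counts in replicate 1, with 453 for Kitl and 229 for Fst, while Foxl2 and Amh had 0 counts in both libraries. Their summed level was 626 CPM in replicate 1 and 321 CPM in replicate 2, the latter on only 4 counts. Counts this few do not settle whether either list was lower in replicate 2. Immune and endothelial markers had at most 1 count in replicate 1, and Pecam1 had 11 in replicate 2. IDs with several candidate genes are left out here too. In replicate 1 they held 65 counts that could belong to the immune marker Lyz2 and 12 that could belong to the meiosis gene Hormad1. The part of fibroblasts or granulosa cells in the counts of the cell cycle genes was not tested.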

How the data were processed

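RNA-seq was measured in 2 libraries of differentiated FGSCs. The deposited values are raw counts, whole numbers per ID, neither normalized nor pooled by the authors. The submitters' notes name FastQC, Trim Galore, HISAT2 2.2.1, featureCounts and mm10, whereas the paper's methods describe TopHat and Cufflinks, so which program made the counts is not settled. The members and lists were chosen with earlier results of these data known.

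Each library listed the same 129311 IDs, 76066 Ensembl transcript IDs and 53245 protein accessions. Ensembl IDs were looked up in GENCODE M21 (GRCm38). The IDs follow chromosome and transcript start, and an accession was placed among the coding transcripts that start between its annotated neighbours, narrowed by rank. This placed 85.4% of the accessions in 1 gene, and 86.8% and 91.7% of the counts of replicates 1 and 2 lay on IDs of 1 gene. IDs with several candidate genes were left out of the sums. They are given beside the sums for the members, and for the other lists only the larger of them are given. For the members they held 996 counts in replicate 1 and 0 in replicate 2.

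CPM used all counts of a library, which were 1517151 and 12442, and FPKM used the union of exons. Intervals are exact Poisson intervals for levels, Wilson intervals for shares and exact conditional intervals for ratios, and a gene at 0 has a limit of 3 counts. Both libraries are 1 group, so no test between groups was made. Libraries were compared by Fisher's exact test with Benjamini-Hochberg adjustment over all genes with 3 counts or more. On simulated data for this comparison, run on 8803 unchanged genes, 98 of 100 genes raised 16-fold in replicate 2 were called. So were 24 of 100 raised 4-fold and 9 unchanged genes. The simulated reads were independent and no gene was set lower in replicate 2. These rates therefore do not cover PCR copies, spread between libraries of few cells, or decreases. All 45 members are named, in full those with at least 3 counts in either library, and from each list the highest genes with 3 counts or more, except 1 that is not reported here. Tfap2c, Pecam1, Kit and the markers at 0 were named after their values were seen. Exons of 16 members overlap a gene on the opposite strand, and Smart-seq2 keeps no strand. Sequences come from RefSeq. Alternatives were Ensembl IDs alone, shared IDs given to each gene, totals without mitochondrial counts, count minimums of 1 and 10, TMM (edgeR 4.0.16) and DESeq2 1.42.0 size factors, a second length, and each replicate or leading gene left out. Some were added after seeing the data. Python 3.11.15, pandas 2.3.3, scipy 1.17.1 and R 4.3.3 were used. Undifferentiated FGSCs, histone marks and DNA methylation were not analysed here.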

Additional observations from a re-analysis of the deposited data

How the results depend on the processing

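With Ensembl IDs alone, both the inferred genes and nearly all coding transcripts are left out. The members then took 0.0100% of the counts of both libraries in place of 0.881%, and 9 members in place of 32 had at least 3 counts. Of 9 members tested, 2 in place of 5 differed between the libraries. These were Ccnd3 and Ccnd1, both higher in replicate 2, where 18.2% of the 3797 genes tested were higher and 0.395% lower. Of the 10 members highest per length, 5 stayed. With 1 replicate left out at a time, the median member level ranged from 0 to 31.0 CPM, the share on the members from 0.209% to 0.886%, and the members with at least 3 counts from 4 to 32. Replicate 1 alone thus set all 3 values. Scaling moved the test of the libraries: 24 members were called with TMM (22 lower in replicate 2) and 23 with DESeq2 size factors (21 lower), against 5 (3 lower) with plain totals. Of all 8823 genes tested, 31.8% were lower and 9.61% higher in replicate 2 with TMM. With DESeq2 size factors 28.8% were lower and 9.71% higher, and with plain totals 2.67% and 12.2%. Over all genes, 1308 of 8823 tested were called with plain totals, 3651 with TMM and 3394 with DESeq2 size factors. Without a filter, 2616 of 13729 were called, and at a minimum of 10 counts 532 of 6133. On Ensembl IDs alone 705 of 3797 were called, and on accessions alone 593 of 5675. With shared IDs given to each gene, 1699 of 10531 were called. Of the members, 4 of 29 tested were called at a minimum of 10 counts and 4 of 31 on accessions alone. With shared IDs given to each gene, 4 of 35 were called, and the last 2 settings lost Ccnd3. The background of genes with at least 3 counts in either library was 29.1% of protein-coding genes and 15.6% of all genes of the annotation. Without the leading member of each role, the median role had 117 counts in place of 663.5. The count of members shown stayed between 29 and 35 at minimums of 1 and 10 counts, with shared IDs given to each gene and among members with at least 200 single-transcript coding bases. The cause of these shifts was not tested. No paired analysis was possible because there is only 1 group. Depth limits replicate 2, where a level under 241 CPM lay below the 3 counts taken as shown.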
